A study of Mus musculus with 9 samples.

Results

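The genes described here are 10 surface, matrix and scavenger genes of lymphatic endothelium, chosen by gene symbol from the 24321 genes of a table of FPKM, fragments scaled for transcript length and for the number of fragments mapped. They are Lyve1, Pdpn, Mmrn1, Thy1, Reln, Stab1, Stab2, Mrc1, Clca1 and Fgl2. Lyve1 and Pdpn encode the 2 proteins by which lymphatic endothelial cells are commonly sorted, and they were compared with the other 8 genes.

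The study sequenced RNA of meningeal lymphatic endothelial cells (MLECs) from mice with and without an intracranial tumor. Control mice received PBS, and the other groups received GL261 cells, a mouse glioma line, or B16 cells, a mouse melanoma line. Each of the 3 groups had 3 libraries of 10 sorted cells, each from a separate pool of 6 mice, so no value belongs to a single mouse. All mice were male C57BL/6 with a labelled age of 10 weeks. Per the labels, 100000 tumor cells entered the cisterna magna, and cells were collected about 3 weeks later for GL261 and about 2 weeks later for B16, so by the labels tumor and time cannot be told apart. For these cells the study's text instead describes subdural injection, with a single time for all groups in its results and a range in its methods, and its methods give the labelled route and number as a separate procedure. Route, cell number and time are thus uncertain. The labels and the study's methods give CD31, CD45 and LYVE-1 as stains of the sort. The study's results instead describe a gate on cells negative for CD45 and positive for CD31 and PDPN. The level of either sorting gene may thus be set in part by the sort.

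Lymphatic endothelium takes up fluid and cells from tissue and carries them to lymph nodes, and in the dura it lines vessels that drain cerebrospinal fluid. LYVE-1 binds hyaluronan, podoplanin binds the platelet receptor CLEC-2, and stabilins and the mannose receptor take up modified proteins and glycans. Several of these genes are also used by other cells: Lyve1, Mrc1 and Stab1 by tissue macrophages, Thy1 and Pdpn by fibroblasts, and Stab2 by liver sinusoids.

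The number of genes listed above 0 was 7303, 8688 and 8152 in Control 1 to 3, 10777, 10852 and 9456 in GL261 1 to 3, and 8736, 9258 and 9950 in B16 1 to 3. Read counts were not used here, but the lowest FPKM values give the depth of one library relative to another. Relative to Control 1, depth was 1.17 in Control 2 and 0.734 in Control 3. It was 4.64, 4.92 and 2.72 in GL261 1 to 3 and 1.24, 2.29 and 2.79 in B16 1 to 3. Each tumor-associated library was estimated as deeper than each control library, but B16 1 and Control 2 differed by only 0.09 on the log2 scale, within the tolerance of 0.1 used for the estimate. Apart from that pair, estimated depth followed the groups, so depth and tumor can hardly be told apart. The estimate for B16 2 is less certain, since its own ratios to Control 3 and B16 1 missed it by far more than 0.1. Taken alone, its ratio to B16 1 would make B16 2 the shallower of these 2 libraries, not the deeper. Tbp, a gene that every cell uses, was listed at 0 in Control 1 and Control 3, so a 0 is given here only as listed at 0.

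Compared with control MLECs, tumor-associated MLECs had lower Thy1, Mmrn1, Reln and Stab2. Lyve1, Pdpn, Stab1, Mrc1 and Fgl2 did not pass the test. Differences were tested with limma on log2(FPKM + 1), a scale that understates changes of low values, over the 9955 genes that reached an FPKM of 1 in 3 or more libraries. Clca1 did not enter the test, and Stab2 entered it through the controls, so the count of genes passed is a description. The genes were also chosen with earlier results of these data known. The shares of all genes given beside the counts, here and below, are therefore not independent support. With GL261 and B16 joined, 4 of the 9 genes tested were lower at an adjusted p under 0.05, against 1.02% of all genes tested. None was higher, against 2.90% of all genes tested. The count of lower genes was 2 with the replicate block and between 2 and 4 with 1 library left out. In 6 of the 10 genes (Mmrn1, Thy1, Reln, Stab1, Stab2 and Fgl2) every tumor-associated library lay below every control library, as in 4.44% of all genes tested. The median log2 difference was -2.35 over the 9 genes and 0.20 over all genes tested. The latter was 0.05 after rescaling each library to the same sum and 0.03 after quantile normalization. In bulk samples, fewer cells that express a gene and less RNA of it per cell cannot be told apart.

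Of the single tumors, GL261 had 4 of the 9 genes lower than control (Mmrn1, Mrc1, Reln and Thy1), against 0.904% of all genes tested. B16 had 2 lower (Mmrn1 and Thy1), against 0.502% of all genes tested. With 1 library left out, the count was between 2 and 4 in GL261 and between 0 and 2 in B16. Both comparisons use the same 3 control libraries. The median log2 difference of the 9 genes was -2.73 in GL261 and -1.86 in B16, beside 0.23 and 0.20 over all genes tested. With relative depth as a covariate, an alternative chosen after seeing the data, none of the 10 genes passed in any of these comparisons by limma, and of all genes tested 9 passed with the tumors joined, where 391 had passed without it. The number of genes above 0 as a covariate also left none of the 10 genes past the threshold, and 13 of all genes tested. The size of the differences moved in both directions. In GL261, relative depth took Mmrn1 from -2.73 to -0.61, Thy1 from -3.99 to -1.40, Fgl2 from -1.93 to -0.34 and Mrc1 from -4.27 to -3.60. Reln went from -2.84 to -2.98 and Stab2 from -3.24 to -5.02, and Lyve1, Pdpn and Stab1 changed sign. For Stab2 with the tumors joined, -3.04 became -3.39 with relative depth and -4.13 with genes above 0. The part of depth in these differences was not resolved by these fits.

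**Figure D1:**
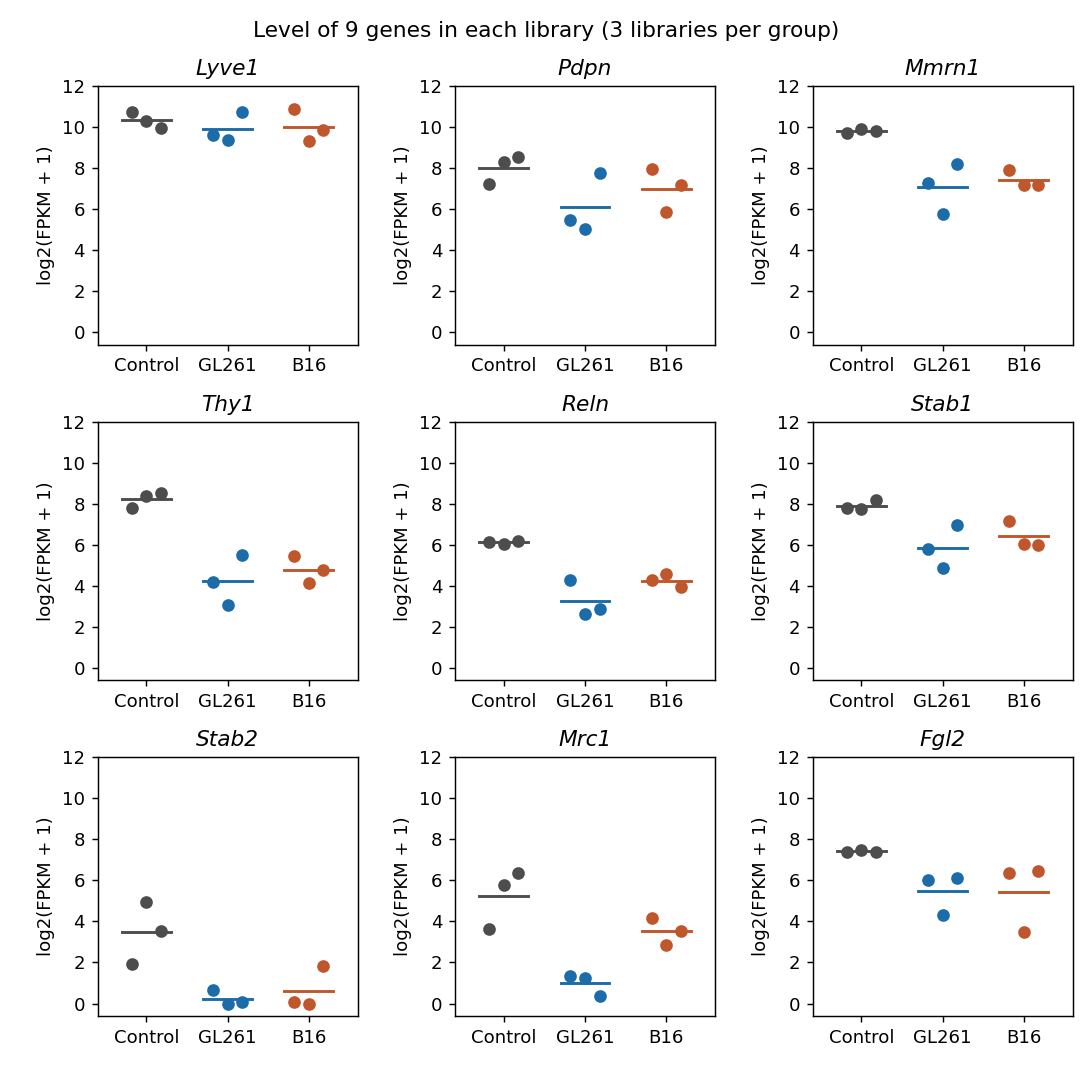
Level of 9 genes as log2(FPKM + 1), with 1 point per library and the group mean as a bar (n = 3 per group); Clca1 is left out because it was listed at 0 in all 9 libraries. In Mmrn1, Thy1, Reln, Stab1, Stab2 and Fgl2 all tumor-associated points lie below all control points, and in Lyve1, Pdpn and Mrc1 they overlap.

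Lyve1, which encodes a hyaluronan receptor of lymphatic endothelium, was the most abundant of the 10 genes in each library. Its FPKM was 1705, 1250.4 and 974 in Control 1 to 3, 777, 660.2 and 1709 in GL261 1 to 3, and 1895, 628 and 911 in B16 1 to 3. B16 1 was the highest library and B16 2 the lowest, so all groups overlapped. The log2 difference of tumor-associated against control MLECs was -0.36 ± 0.36 (SE; limma, adjusted p = 0.629), with a 95% interval from -1.15 to 0.42. It turned to 0.45 with relative depth as a covariate and to 0.52 with the number of genes above 0 as a covariate, and was -0.59 after rescaling and -0.75 after quantile normalization. It was -0.15 without Control 1, -0.56 without Control 3, -0.55 without B16 1 and -0.23 without B16 2. Against control it was -0.41 in GL261 and -0.31 in B16 (limma, adjusted p = 0.681 and 0.791), and both turned positive with either covariate. The GL261 value was -0.21 without Control 1, -0.26 without GL261 1, -0.15 without GL261 2 and -0.83 without GL261 3. The B16 value was -0.10 without Control 1, -0.51 without Control 3, -0.75 without B16 1 and 0.04 without B16 2.

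Pdpn, which encodes the mucin-type surface protein podoplanin, was below Lyve1 in each library. Its FPKM was 147, 316 and 372 in Control 1 to 3, 42.9, 32.0 and 218 in GL261 1 to 3, and 247, 57.5 and 142 in B16 1 to 3. GL261 1, GL261 2 and B16 2 were low, whereas GL261 3 and B16 1 lay above Control 1, so the groups overlapped. Tumor-associated and control MLECs had a log2 difference of -1.48 ± 0.64 (SE; limma, adjusted p = 0.235), with a 95% interval from -2.86 to -0.09. It was -1.93 for GL261 and -1.02 for B16 (limma, adjusted p = 0.193 and 0.558). The B16 value was -0.46 without B16 2. With relative depth as a covariate the joined, GL261 and B16 differences turned to 0.53, 1.50 and 0.76, and with genes above 0 they were -0.21, -0.48 and -0.23. The SD on the log2 scale was 0.71 in control, 1.47 in GL261 and 1.05 in B16 for Pdpn, and 0.40, 0.73 and 0.81 for Lyve1.

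Mmrn1 encodes multimerin 1, a large secreted glycoprotein of platelets and endothelium. Its FPKM was 842, 966 and 887 in Control 1 to 3, 155, 52.6 and 293 in GL261 1 to 3, and 242, 145 and 143 in B16 1 to 3. The controls were close together, GL261 2 was the lowest library, and no tumor-associated library reached a control library. The log2 difference was -2.56 ± 0.44 (SE; limma, adjusted p = 0.00543), 5.89-fold lower, in 6 of 6 libraries, with a 95% interval from -3.50 to -1.62. With relative depth as a covariate it was -1.48 (limma, adjusted p = 0.429). The difference was -2.73 in GL261 (limma, adjusted p = 0.0137) and -2.38 in B16 (adjusted p = 0.0367). Relative depth took these to -0.61 and -1.28, and genes above 0 took them to -1.25 and -1.57 and the joined value to -1.61. Without GL261 1 the GL261 difference of -2.84 missed the threshold (limma, adjusted p = 0.0563), as it did with no filter (adjusted p = 0.0531) and without a trend (adjusted p = 0.0729). The B16 call was lost without Control 1, 2 or 3, GL261 1, or B16 1, 2 or 3, with differences between -2.63 and -2.26 (limma, adjusted p from 0.0596 to 0.134), and also with a pseudocount of 0.1 (adjusted p = 0.0528), with no filter (adjusted p = 0.112) and without a trend (adjusted p = 0.123).

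Reln encodes reelin, a secreted matrix protein that signals through lipoprotein receptors. Its FPKM was 69.1, 64.4 and 70.8 in Control 1 to 3, 18.7, 5.11 and 6.40 in GL261 1 to 3, and 18.2, 22.9 and 14.2 in B16 1 to 3. The controls differed little, and the highest tumor-associated library was B16 2. The log2 difference was -2.35 ± 0.56 (SE; limma, adjusted p = 0.0335), 5.10-fold lower, in 6 of 6 libraries. The call was lost without Control 1, 2 or 3, GL261 1, 2 or 3, or B16 3, with differences between -2.46 and -2.12 (limma, adjusted p from 0.0504 to 0.0855), and with the replicate block (adjusted p = 0.0574). With relative depth as a covariate it was -1.61 (limma, adjusted p = 0.585). In GL261 the difference was -2.84 (limma, adjusted p = 0.0256), which was lost without Control 1, Control 3, GL261 2 or GL261 3, with differences between -2.83 and -2.52 (adjusted p from 0.0566 to 0.112), and with the replicate block (adjusted p = 0.0536). In B16 it was -1.86 (limma, adjusted p = 0.157).

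Thy1 encodes a GPI-anchored surface glycoprotein of fibroblasts, T cells and some endothelium. Its FPKM was 222 in Control 1, 325 in Control 2, 367 in Control 3, 16.9, 7.28 and 44.1 in GL261 1 to 3, and 42.7, 16.6 and 25.9 in B16 1 to 3. No tumor-associated library reached a control library, and the tumors overlapped each other. Against control, the log2 difference was -3.72 ± 0.54 (SE; limma, adjusted p = 0.00189), 13.2-fold lower, in 6 of 6 libraries. With relative depth as a covariate it was -2.31 (limma, adjusted p = 0.301). The difference was -3.99 in GL261 (limma, adjusted p = 0.00609) and -3.45 in B16 (adjusted p = 0.0164). Relative depth took these to -1.40 and -2.10, and genes above 0 to -2.66 and -2.72. The B16 call was lost without Control 3, B16 2 or B16 3, with differences of -3.30, -3.13 and -3.43 (limma, adjusted p = 0.0530, 0.0762 and 0.0686).

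Stab1 encodes stabilin 1, a scavenger receptor of lymphatic and sinusoidal endothelium and of some macrophages. Its FPKM was 217, 211 and 291 in Control 1 to 3, 53.7, 28.2 and 122 in GL261 1 to 3, and 142, 65.3 and 63.3 in B16 1 to 3. Every tumor-associated library lay below every control library, with B16 1 and GL261 3 closest to the controls. The log2 difference of -1.76 ± 0.47 (SE) missed the threshold (limma, adjusted p = 0.0550). It passed without GL261 3 at -1.92 (limma, adjusted p = 0.0452) and without B16 1 at -1.97 (adjusted p = 0.0280), and also after rescaling to the same sum (adjusted p = 0.0485), after quantile normalization (adjusted p = 0.0400) and among genes above 0 in all libraries (adjusted p = 0.0452). It was -0.31 with relative depth as a covariate and -0.59 with genes above 0. In GL261 the difference was -2.03 (limma, adjusted p = 0.0648), which passed without GL261 3 at -2.57 (adjusted p = 0.0327) and among genes above 0 in all libraries (adjusted p = 0.0473), and in B16 it was -1.49 (adjusted p = 0.211). Relative depth took these to 0.68 and -0.08, and genes above 0 to -0.34 and -0.56. Exons of Stab1 overlap those of Nt5dc2 on the opposite strand, and Nt5dc2 had an FPKM of at most 7.21 in any library.

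Stab2 encodes stabilin 2, a receptor that clears hyaluronan. Its FPKM was 2.82, 30.3 and 10.6 in Control 1 to 3, 0.573, 0 and 0.0556 in GL261 1 to 3, and 0.0616, 0 and 2.52 in B16 1 to 3. The groups did not overlap, but B16 3 lay close to Control 1. The gene reached an FPKM of 1 in the 3 controls and B16 3 alone, so it entered the test through the group in which it was high. The log2 difference was -3.04 ± 0.77 (SE; limma, adjusted p = 0.0461), in 6 of 6 libraries. The call was lost without Control 2, Control 3, GL261 1, 2 or 3, B16 1 or B16 2, with differences between -3.08 and -2.30 (limma, adjusted p from 0.0690 to 0.119). It was also lost with a pseudocount of 0.1, at -5.16 (limma, adjusted p = 0.0783), with no filter (adjusted p = 0.0912) and with the replicate block (adjusted p = 0.0686). In GL261 the difference was -3.24 (limma, adjusted p = 0.0851), which passed without Control 1 at -4.01 (adjusted p = 0.0444) and after quantile normalization at -3.53 (adjusted p = 0.0428), and in B16 it was -2.85 (adjusted p = 0.154). A pseudocount of 0.1 took these to -5.49 and -4.82, and genes above 0 as a covariate to -5.92 and -4.31.

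Mrc1 encodes the mannose receptor, which takes up glycoproteins in lymphatic endothelium and macrophages. Its FPKM was 11.3, 54.3 and 82.2 in Control 1 to 3, 1.53, 1.37 and 0.304 in GL261 1 to 3, and 17.0, 6.12 and 10.7 in B16 1 to 3. All GL261 libraries lay below all others, whereas B16 1 lay above Control 1. The log2 difference was -4.27 ± 0.87 (SE) in GL261 (limma, adjusted p = 0.0216), lower in 3 of 3 libraries, and -1.75 ± 0.87 (SE) in B16 (adjusted p = 0.373). With both joined it was -3.01 ± 0.95 (SE; limma, adjusted p = 0.101). GL261 against B16 gave -2.52 ± 0.87 (SE; limma, adjusted p = 0.677), so the tumors were not shown to differ. The GL261 call was lost without Control 2, Control 3 or any GL261 library, with differences between -4.45 and -3.71 (limma, adjusted p from 0.0559 to 0.0795), with only the 6 libraries compared (adjusted p = 0.0522) and with the replicate block (adjusted p = 0.0515). With relative depth as a covariate the GL261 difference was -3.60 (limma, adjusted p = 0.732) and with genes above 0 as a covariate -5.98 (adjusted p = 0.371), whereas the joined difference was -0.73 and -2.31. The B16 difference was -2.68 with genes above 0.

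Fgl2 encodes a fibrinogen-like secreted and membrane protein with roles in coagulation and immune regulation. Its FPKM was 165, 179.7 and 164 in Control 1 to 3, 63.2, 19.1 and 68.4 in GL261 1 to 3, and 81.9, 10.2 and 85.6 in B16 1 to 3. The controls were close together, and GL261 2 and B16 2 were far below the other tumor-associated libraries. The log2 difference was -1.95 ± 0.63 (SE), which missed the threshold although the groups did not overlap (limma, adjusted p = 0.109). It was -1.93 in GL261 and -1.98 in B16 (limma, adjusted p = 0.217 and 0.246). The B16 value was -1.01 without B16 2, and relative depth took the GL261 and B16 values to -0.34 and -1.15.

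Clca1 was listed at 0 in all 9 libraries and was not tested. Symbols of this family of calcium-activated chloride channel regulators have been reassigned: the mouse gene earlier called Clca1 is now Clca3a1, and both symbols are in the table. Clca3a1 had an FPKM of 13.9, 9.04 and 0.449 in Control 1 to 3, 6.25, 35.8 and 31.2 in GL261 1 to 3, and 20.8, 0 and 23.4 in B16 1 to 3. Its groups overlapped, and its log2 difference was 1.10 ± 1.15 (SE; limma, adjusted p = 0.651). Clca2 was at 12.5, 14.5 and 21.9 in Control 1 to 3 and between 0 and 9.15 in tumor-associated libraries, without overlap (log2 difference -1.92; limma, adjusted p = 0.217). Of 11 family symbols, 7 were listed and 2 were tested, and neither passed. Reads of near-identical family members may have been split between them, so these values are uncertain.

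The sorting genes were set against the others within each library, which removes a factor common to all genes of a library. The log2 ratio of Thy1 to Lyve1 was -2.94, -1.94 and -1.41 in Control 1 to 3 and between -6.50 and -5.14 in tumor-associated libraries, with a median of -5.37. That of Mmrn1 was -1.02, -0.37 and -0.14 in Control 1 to 3 and between -3.65 and -2.12 in tumor-associated libraries, with a median of -2.61. Both ratios were lower in all tumor-associated libraries than in any control library. The same held for Reln, Stab1 and Fgl2, of which Fgl2 came closest, at -3.41 in B16 3 and -3.37 in Control 1. Stab2 overlapped, with -8.50 in B16 3 above -9.24 in Control 1. Mrc1 also overlapped, with -7.24 in Control 1 and -6.80, -6.68 and -6.42 in B16 1 to 3. Pdpn to Lyve1 was -3.54, -1.99 and -1.39 in Control 1 to 3, -4.18, -4.37 and -2.97 in GL261 1 to 3, and -2.94, -3.45 and -2.68 in B16 1 to 3. Control 1 thus lay among the tumor-associated libraries in the ratio of the sorting genes.

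With the log2 value of Lyve1 subtracted from each gene in each library, an alternative chosen after seeing the data, Thy1 and Mmrn1 were lower in tumor-associated MLECs, 2 of 8 genes, against 0.291% of 9954 genes. This scaling moved the median log2 difference of all genes to 0.56, and 222 genes were called higher. The difference was -3.35 ± 0.63 (SE) for Thy1 (limma, adjusted p = 0.00393) and -2.19 ± 0.53 (SE) for Mmrn1 (adjusted p = 0.0304). The other members lay between -2.68 for Stab2 and -1.11 for Pdpn, and none of them passed. Of the single tumors, only Thy1 in GL261 passed, at -3.57 (limma, adjusted p = 0.0178). With Pdpn subtracted in the same way, none of 8 genes was lower at the threshold, against 0.0402% of 9954 genes. Here the median of all genes moved to 1.68 and 997 genes were called higher, since the difference of Pdpn itself was taken from every gene. Thy1 was then at -2.24 ± 1.04 (SE; limma, adjusted p = 0.122) and Stab1 at -0.28 ± 0.99 (SE; adjusted p = 0.832). Stab2 was at -1.57, Mrc1 at -1.53, Mmrn1 at -1.08, Reln at -0.87, Fgl2 at -0.48 and Lyve1 at 1.11. The log2 ratio of Thy1 to Pdpn was between -0.02 and 0.60 in control and between -2.53 and -1.34 in tumor-associated libraries, without overlap. Stab2 to Pdpn did not overlap either, at -5.82 in B16 3 and -5.70 in Control 1. The ratios of Mmrn1, Reln, Stab1, Mrc1, Fgl2 and Lyve1 to Pdpn overlapped, with Mmrn1 between 1.25 and 2.52 in control and between -0.03 and 1.86 in tumor-associated libraries.

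**Figure D2:**
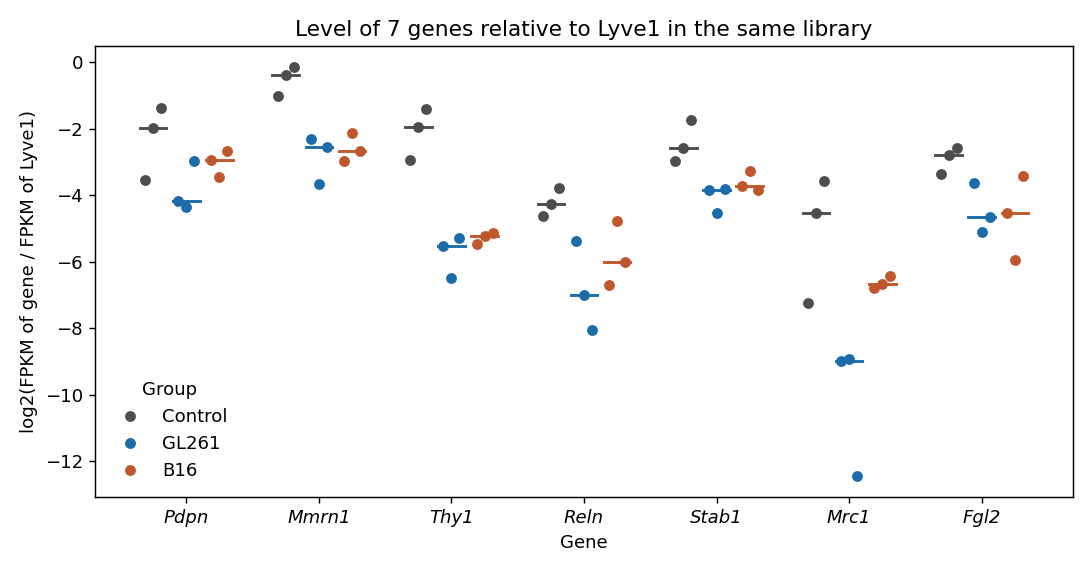
Log2 ratio of the FPKM of 7 genes to that of Lyve1 in the same library, with 1 point per library and the group median as a bar (n = 3 per group). Stab2 and Clca1 are left out because they were listed at 0 in some or all libraries; for Thy1 the control points lie between -2.94 and -1.41 and the tumor-associated points between -6.50 and -5.14.

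Between GL261 and B16 MLECs none of the 9 genes tested passed by limma, against 0.0100% of all genes tested in either direction. At an unadjusted p under 0.05 there was 1 of the 9 genes, Mrc1, and 548 of all genes tested. The log2 differences of GL261 against B16 lay between -2.52 for Mrc1 and 0.05 for Fgl2. The 95% interval of that difference ran from -1.04 to 0.84 for Lyve1 and from -2.50 to 0.69 for Pdpn.

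By mean FPKM in control, which is per length, the order was Lyve1, Mmrn1, Thy1, Pdpn, Stab1, Fgl2, Reln, Mrc1 and Stab2. Lyve1 ranked 69 among the 9955 genes in control, 139 in GL261 and 108 in B16. Thy1 ranked 331 in control, 2879 in GL261 and 2549 in B16, and Mmrn1 ranked 118, 652 and 609. The control ranges of Thy1, Pdpn and Stab1 overlapped, as did those of Pdpn and Fgl2, of Reln and Mrc1 and of Mrc1 and Stab2.

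The genes most like Lyve1 by Pearson r of log2(FPKM + 1) over the 9 libraries were Afg3l2 (r = 0.909), Zfp213 (0.899), Agpat5 (0.898), Clasp1 (0.898) and Cyr61 (0.896). Those most like Pdpn were N4bp3 (r = 0.939), Ddx27 (0.917), Arid4a (0.916), Tgfb2 (0.915) and Plce1 (0.914). Stab1 ranked 8 in likeness to Pdpn (r = 0.892), and Pdpn ranked 121 in likeness to Lyve1 (r = 0.706). These values are descriptions, since the libraries share groups and depth.

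Of 13 gene symbols of hyaluronan synthesis, breakdown and binding, 12 were listed and 4 tested, and none passed, with a median log2 difference of 0.74. The synthase genes Has1, Has2 and Has3 were listed at 0 in all libraries, as was Cemip. The hyaluronidase gene Hyal2 was at 53.0, 14.0 and 94.1 in Control 1 to 3 and between 55.5 and 194 in tumor-associated libraries, with overlap (log2 difference 1.32; limma, adjusted p = 0.225). Tmem2, which encodes a cell-surface hyaluronidase, was at 9.05, 4.94 and 10.0 in Control 1 to 3 and between 12.4 and 45.1 in tumor-associated libraries, without overlap (log2 difference 1.23; limma, adjusted p = 0.270).

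Of 20 other scavenger receptor genes 10 were tested, of which 1 was lower and none higher, with a median log2 difference of 1.32, and 3 of the 10 reached an FPKM of 1 in no control library. The 1 was Cd36, a receptor for fatty acids and modified lipoproteins, at 92.6, 33.3 and 63.5 in Control 1 to 3 and between 0 and 9.87 in tumor-associated libraries. It fell by 4.79 ± 0.92 (SE) on the log2 scale (limma, adjusted p = 0.0112), in 6 of 6 libraries, but reached an FPKM of 1 in the 3 controls and 2 other libraries, so it entered the test through the group in which it was high. Of 17 genes of podoplanin, reelin and Thy1 partners 10 were tested, of which none was lower and 1 higher, with a median log2 difference of 0.28. The 1 was Msn, whose product moesin links podoplanin to the actin cortex, at 70.3, 66.1 and 99.4 in Control 1 to 3 and between 126 and 217 in tumor-associated libraries (log2 difference 1.27 ± 0.30, SE; limma, adjusted p = 0.0345).

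Of 21 other lymphatic endothelial genes 20 were tested, of which 4 were lower and 1 higher, with a median log2 difference of -0.997. Flt4, the receptor of VEGF-C, was at 174, 204.5 and 219.8 in Control 1 to 3 and between 40.1 and 106 in tumor-associated libraries. It fell by 1.80 ± 0.37 (SE) on the log2 scale, in 6 of 6 libraries (limma, adjusted p = 0.0160). Fxyd6 fell by 3.43, Maf fell by 2.56 and the chemokine gene Ccl21c fell by 3.32 (limma, adjusted p = 0.00871, 0.0231 and 0.0320). In GL261 all 4 were called lower, whereas in B16 none was. The B16 differences were -1.47 for Flt4, -2.75 for Fxyd6, -2.27 for Maf and -2.07 for Ccl21c (limma, adjusted p = 0.0803, 0.0553, 0.106 and 0.106). Ccl21c shares near-identical sequence with Ccl21a, so its value is uncertain. Gata2 and Prox1 were chosen after their values were seen. Gata2 was higher by 3.31 (limma, adjusted p = 0.0431). It reached an FPKM of 1 in 1 control and 6 tumor-associated libraries and so entered the test through the latter. Prox1, the factor that defines lymphatic identity, was lower without overlap but missed the threshold (limma, adjusted p = 0.0509). Of the other genes tested and not called, Pecam1 (0.67, without overlap), Ackr2 (1.97), Sox18 (0.73), Cdh5 (0.45) and Foxc2 (2.05) were higher. The rest, Nrp2, Nr2f2 and Nfatc1 (each without overlap), Itga9, Tbx1, Cldn11, Cp, Tie1 and Angpt2, were lower. Foxc2 was called higher in B16 (limma, adjusted p = 0.0457), having reached an FPKM of 1 in no control library. The summed FPKM of the list was 9712, 16124 and 11476 in Control 1 to 3, 2147, 1406 and 2326 in GL261 1 to 3, and 5795, 2686 and 4465 in B16 1 to 3, with Ccl21c as the gene with the highest mean over the 9 libraries. Ccl21c made up most of the control sums: without it the sum was 2328, 2320.4 and 1725 in Control 1 to 3, 1337, 1264.5 and 1680.3 in GL261 1 to 3, and 1608, 1482 and 1814 in B16 1 to 3, so B16 3 lay above Control 3.

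Markers of other cells were read beside these values, and their part in the results was not tested. The gate in the study's results leaves out cells with CD45, such as macrophages, and cells without CD31, such as fibroblasts. Of 12 blood endothelial genes 10 were tested, of which 8 were higher and none lower in tumor-associated MLECs, with a median log2 difference of 5.13. Their summed FPKM was 2340, 3314 and 2674 in Control 1 to 3, 16139, 14181 and 7973 in GL261 1 to 3, and 6763, 8949 and 8434 in B16 1 to 3, with Plvap as the gene with the highest mean over the 9 libraries. Plvap was at 686, 1390.3 and 905 in Control 1 to 3, below Cldn5 in each, and at 1813, 2004 and 1462 in GL261 1 to 3, where Ly6a was at 6650.0, 4623 and 1330 and Ly6c1 at 4375, 3720 and 1886. In B16 1 to 3 Plvap was at 2599, 4037 and 2887. Against control it was called in B16 (limma, adjusted p = 0.00748) but not in GL261 (adjusted p = 0.110). Ly6c1 was listed at 0 in the 3 controls and was at 393 or more in each tumor-associated library. Flt1, a VEGF receptor gene, was at 0.0997, 0.856 and 0.544 in Control 1 to 3 and between 49.0 and 156 in tumor-associated libraries. Both reached an FPKM of 1 in no control library, and Ly6a and Vwf in 1, so these 4 entered the test through the group in which they were high. Cd34, Emcn, Esam, Ly6a, Plvap and Vwf were the other genes called, and Mfsd2a was listed at 0 in all libraries. Cldn5, a tight junction gene named after its values were seen, was at 1497, 1529 and 1702 in Control 1 to 3, 765, 698 and 890.1 in GL261 1 to 3, and 1679, 1203 and 1136 in B16 1 to 3. It fell by 1.01 on the log2 scale in GL261 (limma, adjusted p = 0.0215) and was called in neither B16 against control (adjusted p = 0.616) nor GL261 against B16 (adjusted p = 0.381).

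Of 14 macrophage genes, which matter for Mrc1, Stab1 and Lyve1, 8 were tested and none passed by limma, with a median log2 difference of -0.90. Ptprc and Adgre1, which define these cells, were listed at 0 in all libraries, and Csf1r was above 0 in GL261 2 alone, at 4.61. The summed FPKM was 281, 488 and 583 in Control 1 to 3, 159.5, 836 and 259.9 in GL261 1 to 3, and 299, 363 and 64.4 in B16 1 to 3, with Fcer1g as the gene with the highest mean over the 9 libraries. Fcer1g was at 201, 261 and 390.2 in Control 1 to 3, 108, 43.5 and 17.8 in GL261 1 to 3, and 43.4, 272 and 28.4 in B16 1 to 3, with overlap (log2 difference -2.28; limma, adjusted p = 0.0909). Other genes of the list lay above it in GL261 2, GL261 3, B16 1 and B16 3, among them Lyz2 (324) and C1qa (186) in GL261 2 and Pf4 (187) in GL261 3.

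Of 9 fibroblast genes, which matter for Thy1 and Pdpn, 1 was tested, Dcn, a matrix proteoglycan gene, and it was lower. It was at 21.8, 44.9 and 15.7 in Control 1 to 3 and at most 0.146 in tumor-associated libraries, and fell by 4.60 ± 0.62 (SE) on the log2 scale (limma, adjusted p = 0.00110). Lum, Fbln1 and Dpt were listed at 0 in all libraries. The summed FPKM of the list was 37.1, 49.0 and 16.5 in Control 1 to 3, 2.74, 1.30 and 0.146 in GL261 1 to 3, and 3.85, 0 and 0.675 in B16 1 to 3. Dcn reached an FPKM of 1 in the 3 controls alone, so it entered the test through the group in which it was high.

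Of 8 mural genes 2 were tested and none passed, with Des listed at 0 and Kcnj8 as the gene with the highest mean over the 9 libraries. Their summed FPKM was 1268 in Control 1, where Acta2 (505) and Tagln (641) were high, 195 in Control 2, 169 in Control 3, and between 13.2 and 121 in tumor-associated libraries. Of 7 T cell genes 1 was tested and none passed. Cd3e, Cd3d, Cd3g and Cd8a were listed at 0, Lck was the most abundant, and the sum was at most 20.5 in any library. Of 6 melanocyte genes none was tested; Mlana, Tyr, Tyrp1 and Mitf were listed at 0, and the sum was at most 4.07, from Pmel in GL261 2. Of 6 glial genes 1 was tested, S100b, the most abundant, and Gfap and Sox2 were listed at 0. S100b did not pass with the tumors joined, passed in B16 (limma, adjusted p = 0.0135), having reached an FPKM of 1 in no control library, and was at 37.0, 36.5 and 25.3 in B16 1 to 3 and at most 3.00 in any other library. The sum of the glial list was at most 4.86 outside B16.

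On mm9, Lyve1 lies at chr7:117994121-118006467, Pdpn at chr4:142857334-142889467 and Mmrn1 at chr6:60874970-60939372. Thy1 lies at chr9:43851467-43856662, Reln at chr5:21390272-21850523 and Fgl2 at chr5:20878460-20884192. Stab1 lies at chr14:31952199-31981827, Stab2 at chr10:86303943-86470770 and Mrc1 at chr2:14151041-14253684. All are annotated as protein-coding. Exons of Reln and Stab2 overlap those of noncoding transcripts on the opposite strand, so reads there cannot be told apart without strand.

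Promoters are shown for the genes lower with the tumors joined that had an entry, and for Pdpn as the sorting gene with one, so that windows of genes lower together can be compared. Of 9 genes looked up 7 had an entry in the promoter table used, and Lyve1 and Thy1 had none there. Each window holds 300 bases around the gene's start from RefSeq (GRCm38.p6), 5′ to 3′ on the gene's strand. Capitals mark matches on either strand to ACAAT (SOX core), GATAA (GATA core), GGAAG (ETS core) and TAAACA (forkhead core).
Mmrn1, chr6:60944067-60944366, plus strand: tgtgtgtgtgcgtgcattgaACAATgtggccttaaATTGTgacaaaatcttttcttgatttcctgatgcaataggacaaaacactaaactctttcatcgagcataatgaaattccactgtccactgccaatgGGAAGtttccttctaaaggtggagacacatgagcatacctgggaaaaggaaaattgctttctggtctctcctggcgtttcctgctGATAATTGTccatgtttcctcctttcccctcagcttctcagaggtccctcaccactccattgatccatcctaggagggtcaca
Reln, chr5:22344656-22344955, minus strand: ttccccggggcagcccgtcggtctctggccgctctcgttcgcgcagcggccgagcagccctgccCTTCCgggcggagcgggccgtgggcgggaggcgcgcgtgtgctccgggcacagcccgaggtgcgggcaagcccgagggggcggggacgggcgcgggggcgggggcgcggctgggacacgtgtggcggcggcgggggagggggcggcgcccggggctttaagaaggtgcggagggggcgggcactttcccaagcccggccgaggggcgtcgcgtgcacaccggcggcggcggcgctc
Stab2, chr10:87007893-87008192, minus strand: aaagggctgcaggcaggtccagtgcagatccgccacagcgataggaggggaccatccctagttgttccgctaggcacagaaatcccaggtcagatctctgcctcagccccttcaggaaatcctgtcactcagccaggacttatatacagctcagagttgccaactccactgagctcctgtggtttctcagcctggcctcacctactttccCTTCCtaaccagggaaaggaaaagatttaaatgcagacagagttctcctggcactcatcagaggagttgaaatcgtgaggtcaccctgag
Pdpn, chr4:143299515-143299814, minus strand: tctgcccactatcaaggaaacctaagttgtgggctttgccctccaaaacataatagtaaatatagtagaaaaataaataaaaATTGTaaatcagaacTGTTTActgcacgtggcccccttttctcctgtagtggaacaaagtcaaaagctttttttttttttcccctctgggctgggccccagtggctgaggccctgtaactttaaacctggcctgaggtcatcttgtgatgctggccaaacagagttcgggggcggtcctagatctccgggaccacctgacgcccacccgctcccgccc
Of 32851 promoters of the same length, 31.0% hold the SOX core, 25.4% the GATA core, 71.4% the ETS core and 13.4% the forkhead core. The Mmrn1 window holds 3 SOX, 1 GATA and 1 ETS match, and the GATA match overlaps a SOX match. The Reln and Stab2 windows hold 1 ETS match each, and the Pdpn window holds 1 SOX and 1 forkhead match. The GC content was 80.7% for Reln, 53.0% for Stab2, 48.7% for Pdpn and 44.3% for Mmrn1, against a median of 52.7% over all promoters. A match is a stretch of letters and not a measured binding site.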

How the data were processed

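RNA of sorted MLECs was sequenced in 9 libraries, 3 per group. The submitters' processing notes name TopHat 2.0.12, Cufflinks 2.2.1 and mm9, and the authors deposited the values as FPKM per gene. Groups came from the labels. The members and lists were chosen with earlier results of these data known. Differences were fitted with limma 3.58.1 in R 4.3.3 (lmFit, eBayes with a trend) on log2(FPKM + 1), over genes that reached an FPKM of 1 in 3 or more libraries. The p-values were adjusted by Benjamini-Hochberg over all genes tested, with a threshold of 0.05. Single tumors were compared in 1 fit of 3 groups. The fit was tested on simulated data. Those data held no depth difference between groups and changed only genes of higher mean level. They therefore do not cover depth or low genes such as Stab2. Tables were handled in Python 3.11.15.

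Read counts were not used here. Relative depth was read from FPKM under 0.5, as the most frequent log2 ratio of each library pair. Of 36 pairs, 34 lay within 0.1 on the log2 scale of a joint solution. The others both held B16 2, whose log2 ratio was 0.642 to Control 3 and -0.701 to B16 1, so its depth is less certain.

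Named genes were all members, up to 4 genes per context list past the threshold by p, or the 2 most abundant where none passed, and each CLCA gene with a mean FPKM of at least 1 in a group. Of the lists of other cells, the most abundant gene, genes past the threshold and defining genes at 0 were named. For Lyve1 and Pdpn the 5 genes with the highest Pearson r were named. The alternatives were a pseudocount of 0.1, rescaling to a sum of 1000000, quantile normalization, eBayes without a trend, no filter, genes above 0 in all 9 libraries, a replicate block, the number of genes above 0 as a covariate, only the groups compared, and leaving out each library. Relative depth as a covariate and values relative to Lyve1 or Pdpn were added after seeing the data. Positions are from the mm9 annotation and promoters from RefSeq (GRCm38.p6).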

Additional observations from a re-analysis of the deposited data

Results flagged for a closer look

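Among the 6 tumor-associated libraries, the Stab2 value of B16 3 (FPKM 2.52) stood apart from the others, which lay between 0 and 0.573. On the log2(FPKM + 1) scale its gap to the next library was 0.640 of the whole range, above the limit for 6 libraries. Both ends of 9 genes were examined, 18 values in all, and chance gives such a gap in about 1 of 20 groups. The cause was not tested.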

How the results depend on the processing

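With the tumors joined, 4 genes passed by limma, and between 2 and 4 did when 1 library was left out. The count was 2 with the replicate block, 2 relative to Lyve1, and 0 with either covariate (genes above 0 or relative depth) or relative to Pdpn. It was 5 after rescaling or quantile normalization and 3 with a pseudocount of 0.1 or no filter. Thy1 and Mmrn1 passed in all alternatives but the covariates and the values relative to Pdpn. In GL261, 4 genes passed, 2 with the replicate block, 1 relative to Lyve1, 0 with either covariate or relative to Pdpn, between 2 and 4 with 1 library left out, 3 with no filter, without a trend or with only the groups compared, and 5 after quantile normalization or among genes above 0 in all libraries. In B16, 2 genes passed, 2 with the replicate block, 1 with a pseudocount of 0.1, with no filter or without a trend, 0 with either covariate or relative to Lyve1 or Pdpn, and between 0 and 2 with 1 library left out. GL261 against B16 gave 0 in each alternative. Whether libraries with the same number were handled together is not known. The correlations of their deviations over 9 pairs lay between -0.033 and 0.044. With 3 libraries per group, whose deviations sum to 0, these values cannot exclude a shared batch. Stab2 was not tested among genes above 0 in all libraries. The cause of these shifts was not tested.

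The log2 difference changed sign in these cases. With the tumors joined, Lyve1 was at 0.52 with genes above 0 as a covariate, 0.45 with relative depth as a covariate and 1.11 relative to Pdpn, and Pdpn at 0.53 with relative depth. In GL261, Lyve1 was at 1.23, 1.55 and 1.51 in the same order, and with relative depth Pdpn was at 1.50 and Stab1 at 0.68. In B16, Lyve1 was at 0.59, 0.71 and 0.71, and from -0.75 to 0.04 with 1 library left out (0.04 without B16 2), and Pdpn at 0.76 with relative depth. For GL261 against B16, genes above 0 as a covariate gave 0.64 for Lyve1, 0.32 for Mmrn1, 0.06 for Thy1 and 0.22 for Stab1. Relative depth gave 0.84 for Lyve1, 0.74 for Pdpn, 0.67 for Mmrn1, 0.70 for Thy1 and 0.76 for Stab1. Relative to Pdpn, values were 0.80 for Lyve1, 0.55 for Mmrn1, 0.36 for Thy1, 0.36 for Stab1 and 0.51 for Stab2. With 1 library left out, Lyve1 lay between -0.52 and 0.34 (0.05 without GL261 1, 0.17 without GL261 2 and 0.34 without B16 1). Mmrn1 then lay between -0.91 and 0.32 and Thy1 between -1.17 and 0.05, both highest without GL261 2, and Stab2 between -0.71 and 0.20, highest without B16 3. Fgl2 was at -0.10 after rescaling and between -0.92 and 0.63 with 1 library left out (-0.21 without GL261 1, -0.27 without GL261 3 and -0.92 without B16 2).

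Of 177 values of single genes with the tumors joined, 136 kept their direction and side of the threshold, as did 147 of 186 in GL261, 160 of 186 in B16 and 161 of 185 in GL261 against B16. Each control library was estimated as shallower than each tumor-associated library, with Control 2 against B16 1 within the tolerance. The low Stab2 values lay in the tumor-associated libraries, estimated as deeper, and its high values in the controls. The part of depth in these values was not resolved.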
